A study of Rattus norvegicus with 24 samples.

Results

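Vegfa, Flt1, Kdr, Fgf2, Nos3 and Pecam1, 6 genes of vascular growth and the endothelium, were followed in the rat left ventricle through all 15 probe sets that the array's annotation gave to them. A probe set is a group of short probes for 1 transcript. The array held 8740 probe sets, apart from its control probe sets, for 4736 genes with a symbol of their own, and all 15 passed the filter on dim signals. Nos3 had 6 probe sets, Vegfa 4 and Fgf2 2, while Flt1, Kdr and Pecam1 had 1 each. Probe sets of 1 gene share their transcript and are not independent of each other.

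Vegfa encodes vascular endothelial growth factor A, the ligand that drives the sprouting and upkeep of blood vessels and is made in the heart largely by myocytes. It binds 2 receptor tyrosine kinases on endothelial cells: Kdr, which carries most of the growth signal, and Flt1, which binds the ligand tightly and also exists as a soluble decoy. Fgf2 encodes basic fibroblast growth factor, another mitogen of endothelial cells. Nos3 encodes endothelial nitric oxide synthase, which acts downstream of Kdr and relaxes vessels. Pecam1 encodes an adhesion molecule of endothelial junctions and serves as a marker of these cells.

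All animals were Dahl salt-sensitive rats, a strain bred for a rise in blood pressure on dietary salt. The rats were delivered 5 weeks old and treated from 6 weeks of age onward. The high salt groups ate chow with 6% NaCl, the exercise groups ran on a treadmill, and the controls were sedentary rats of the same age on normal chow. Running lasted 6 weeks: 3 weeks of building up, then daily sessions of 90 minutes at 16 m/min on a slope of 5 degrees. The titles placed 24 columns in 8 groups of 3, with high salt, exercise and control at 3 weeks and at 6 weeks, and high salt and control at 15 weeks. The labels gave no starting point for these weeks and did not state that each array came from its own animal, so a p-value here covers only the spread from array to array, which may be technical. No genotype other than the strain was given, and whole ventricle was used, so fewer cells of a type and less RNA per cell cannot be told apart.

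Before any comparison, 2 features of the arrays need to be stated. The columns of exercise and control at 3 weeks numbered 2 and 3 held the same 2 arrays, so 22 distinct arrays remained, and the 4 non-salt arrays of 3 weeks were taken as 1 group where that week was compared. The 6-week controls had GAPDH 3' to 5' ratios, a measure of RNA integrity, of 1.58 to 3.99. The 15-week controls lay between 1.09 and 1.58, and the 16 other distinct arrays between 0.989 and 1.18. All 11 cardiac myocyte markers were measured and none was at 0, and of 10 endothelial markers the 5 tested (Pecam1, Vwf, Icam2, Thbd and Kdr) were also all above 0. The tested markers of every other cell type examined were above 0 too, skeletal muscle among them. A value above 0 therefore does not show that a cell type was present. Values below are deposited linear intensities in arbitrary units. They are not scaled for transcript length, so intensities were compared only within a probe set.

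In the rat genome build GRCr8, RefSeq places Vegfa at chr9:22452854-22468194, Flt1 at chr12:12333050-12504750 and Kdr at chr14:32572031-32615204. Fgf2 lies at chr2:122164454-122218796, Nos3 at chr4:11686088-11706604 and Pecam1 at chr10:92090263-92152002. The promoter windows of Vegfa, Kdr and Nos3 are shown because these 3 genes had probe sets called in the comparisons below. Each runs from 250 bases before to 50 bases after a start in RefSeq's promoter table, written 5′ to 3′ on the gene's strand. Capitals mark GC boxes, the 6 letters GGGCGG or their reverse complement CCGCCC. The windows lie at chr9:22452604-22452903 (plus strand), chr14:32571813-32572112 (plus strand) and chr4:11706532-11706831 (minus strand). The start used is the outer end of the gene's span for Vegfa, and lies 32 bases inside it for Kdr and 23 bases inside it for Nos3.
Vegfa: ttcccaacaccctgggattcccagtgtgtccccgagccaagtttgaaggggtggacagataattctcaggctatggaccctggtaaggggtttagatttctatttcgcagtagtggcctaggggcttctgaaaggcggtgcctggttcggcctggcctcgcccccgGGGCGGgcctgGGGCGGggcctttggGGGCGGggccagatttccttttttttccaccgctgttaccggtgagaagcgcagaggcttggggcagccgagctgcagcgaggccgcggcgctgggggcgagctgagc
Kdr: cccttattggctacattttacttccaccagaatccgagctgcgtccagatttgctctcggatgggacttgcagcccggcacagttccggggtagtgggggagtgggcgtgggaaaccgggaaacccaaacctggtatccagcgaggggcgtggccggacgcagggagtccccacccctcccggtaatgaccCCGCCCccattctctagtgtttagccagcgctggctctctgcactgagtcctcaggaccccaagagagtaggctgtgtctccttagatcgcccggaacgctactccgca
Nos3: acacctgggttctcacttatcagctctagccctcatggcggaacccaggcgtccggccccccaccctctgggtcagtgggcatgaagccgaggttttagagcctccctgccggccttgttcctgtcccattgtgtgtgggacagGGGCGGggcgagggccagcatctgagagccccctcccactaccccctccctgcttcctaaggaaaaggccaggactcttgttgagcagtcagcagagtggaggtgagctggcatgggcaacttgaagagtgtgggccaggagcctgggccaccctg

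RefSeq's table gave 6 windows for 5 of the 6 genes, with 2 for Vegfa. The Vegfa window above held 3 GC boxes, at 84, 73 and 58 bases before the start, and the Kdr and Nos3 windows held 1 each, at 59 and 106 bases before the start of their own window. The Flt1 window held 3, and the Fgf2 window and the other Vegfa window held 0. Of all 33469 windows of the same 300 bases in that table, 33.1% held at least 1 GC box. The letters ACGTG or CACGT are 1 form of the core of the sites that hypoxia-inducible factors bind. They stood in the Fgf2 window once and in none of the other 5, against 19.3% of all windows. Other forms of this core were not searched for. A match, or its absence, describes only the letters of a short window.

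High salt was set against control at 15 weeks to show the vascular genes late on the diet. Vegfa was lower in the salt hearts at 3 of its 4 probe sets, and Nos3 at 1 of its 6. In all, 4 of 15 probe sets were called lower and 0 higher at an adjusted p under 0.05, beside 3.92% of all 6555 tested probe sets that were called lower. The median log2 difference, salt minus control, was -0.72 over the 15, against -0.04 over all tested probe sets. Of the 15, 8 had all 3 salt arrays below all 3 controls, as did 12.5% of all tested probe sets.

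The brightest Vegfa probe set, rc_AA850734_at, read 1369.9, 1067 and 662 in the high salt arrays of 15 weeks, against 2277, 2257 and 2402 in the controls of that week. The groups did not overlap, and the salt arrays were spread more widely. The log2 difference was -1.19 ± 0.24 (SE; adjusted p = 0.0044). Probe set M32167_g_at gave 321, 408 and 187 in high salt arrays and 743, 856 and 673 in controls, also without overlap. It fell by 1.26 ± 0.22 on the log2 scale (adjusted p = 0.00127). M32167_at gave 525, 725 and 402 in high salt and 1043, 823 and 920 in control, a difference of -0.74 ± 0.21 (adjusted p = 0.0388). This call was the least firm of the 3: it held in 7 of 16 other settings, with adjusted p between 0.0116 and 0.185, while the calls of the other 2 held in all 16. The fourth probe set, L20913_s_at, gave 804, 712 and 459.5 in high salt and 1311, 882 and 727 in control. These groups overlapped, and the difference of -0.53 ± 0.29 did not pass (adjusted p = 0.327).

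**Figure D1:**
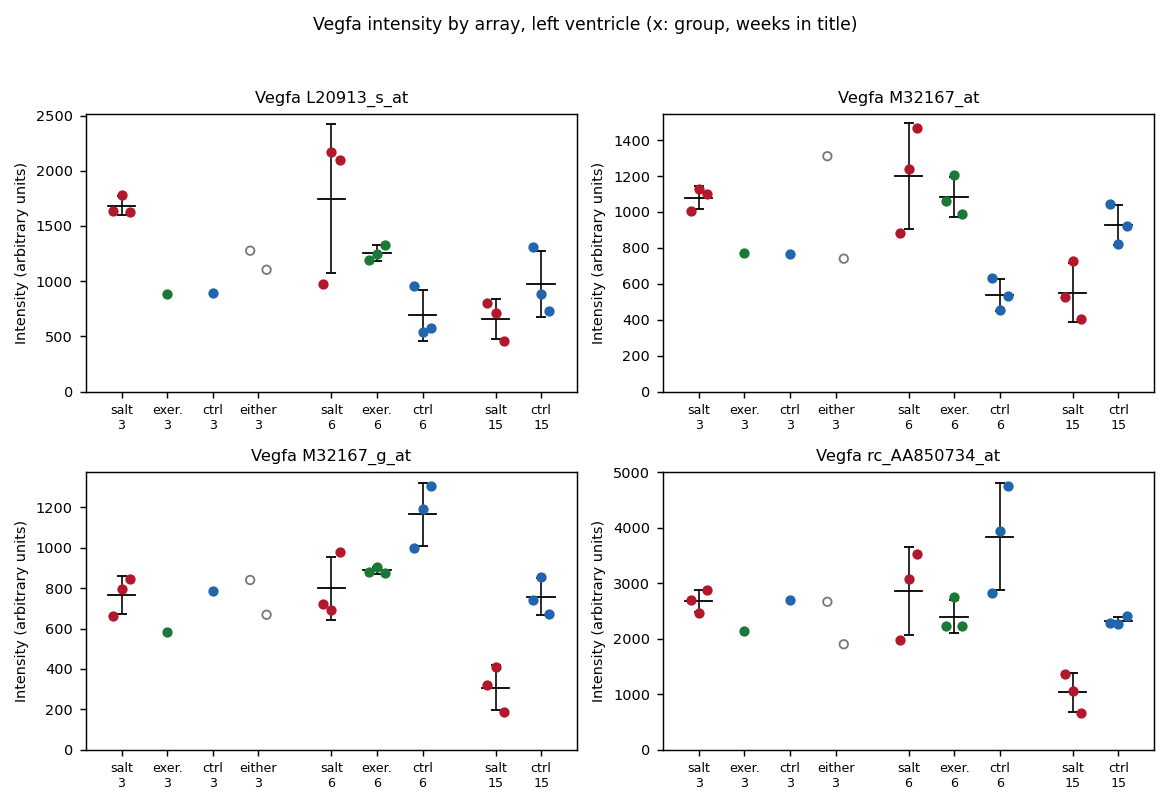
Intensity (arbitrary units, linear axis from 0) of the 4 Vegfa probe sets in each array, by group and week of the titles; red is high salt, green exercise, blue control, and open grey circles are the 2 arrays deposited under both exercise and control at 3 weeks. Bars are mean ± SD where a group has 3 arrays; the 15-week high salt arrays lie below the 15-week controls at 3 probe sets, and the 6-week controls are low at the upper probe sets and high at the lower ones.

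The receptors Kdr and Flt1 had opposite signs at this time. Kdr read 246, 149.6 and 213 in high salt arrays and 317, 298 and 816 in controls. The groups did not overlap, but 1 control stood far above the other 2, and the difference of -0.97 ± 0.31 missed the threshold (adjusted p = 0.0617). It passed without the control numbered 1 (adjusted p = 0.0354) and lay at the threshold without the one numbered 2 (adjusted p = 0.05). Without the control numbered 3, which read 816, the difference was -0.54 (adjusted p = 0.336). Flt1 read 459, 520.3 and 346 in high salt and 348, 204 and 438 in control, with a difference of 0.42 ± 0.25 that did not pass either (adjusted p = 0.388).

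Nos3 was lower at all 6 probe sets in sign. AJ011115_at gave 120.5, 122 and 128 in high salt arrays, a very narrow range, and 285, 327 and 269 in controls. The groups were far apart, with a log2 difference of -1.03 ± 0.27 (adjusted p = 0.0231). Left-out arrays raised that p to at most 0.0995, and 11 of 16 other settings kept the call. AJ011116_at gave 274, 275 and 227 in high salt and 378, 549 and 542 in control. These did not overlap, and the difference of -0.81 ± 0.29 did not pass (adjusted p = 0.107). It passed with the 6-week controls left out of the fit, a setting chosen after seeing the data (adjusted p = 0.0229). With the GAPDH ratio as a covariate it was smaller, at -0.48 ± 0.20, and did not pass (adjusted p = 0.181). AF085195_at, a dim probe set, averaged 28.6 ± 20.9 in high salt and 111.2 ± 63.6 in control (SD, n = 3 each), with a difference of -1.09 ± 0.35 (adjusted p = 0.0627). The other 3 Nos3 probe sets differed by -0.09 to -0.72 and did not pass.

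Pecam1 averaged 525.3 ± 30.0 in high salt and 849 ± 154 in control (SD, n = 3 each). Its arrays read 550.1, 534 and 492 in high salt and 1027, 763 and 756 in control, without overlap, and the difference of -0.64 ± 0.24 did not pass (adjusted p = 0.13). Both Fgf2 probe sets were higher in sign, by 0.29 ± 0.35 and 0.49 ± 0.30, and neither was called. For M22427_at, the brighter one, the arrays gave 148, 248 and 165 in high salt and 87.5, 148 and 215 in control, which overlapped widely.

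**Figure D2:**
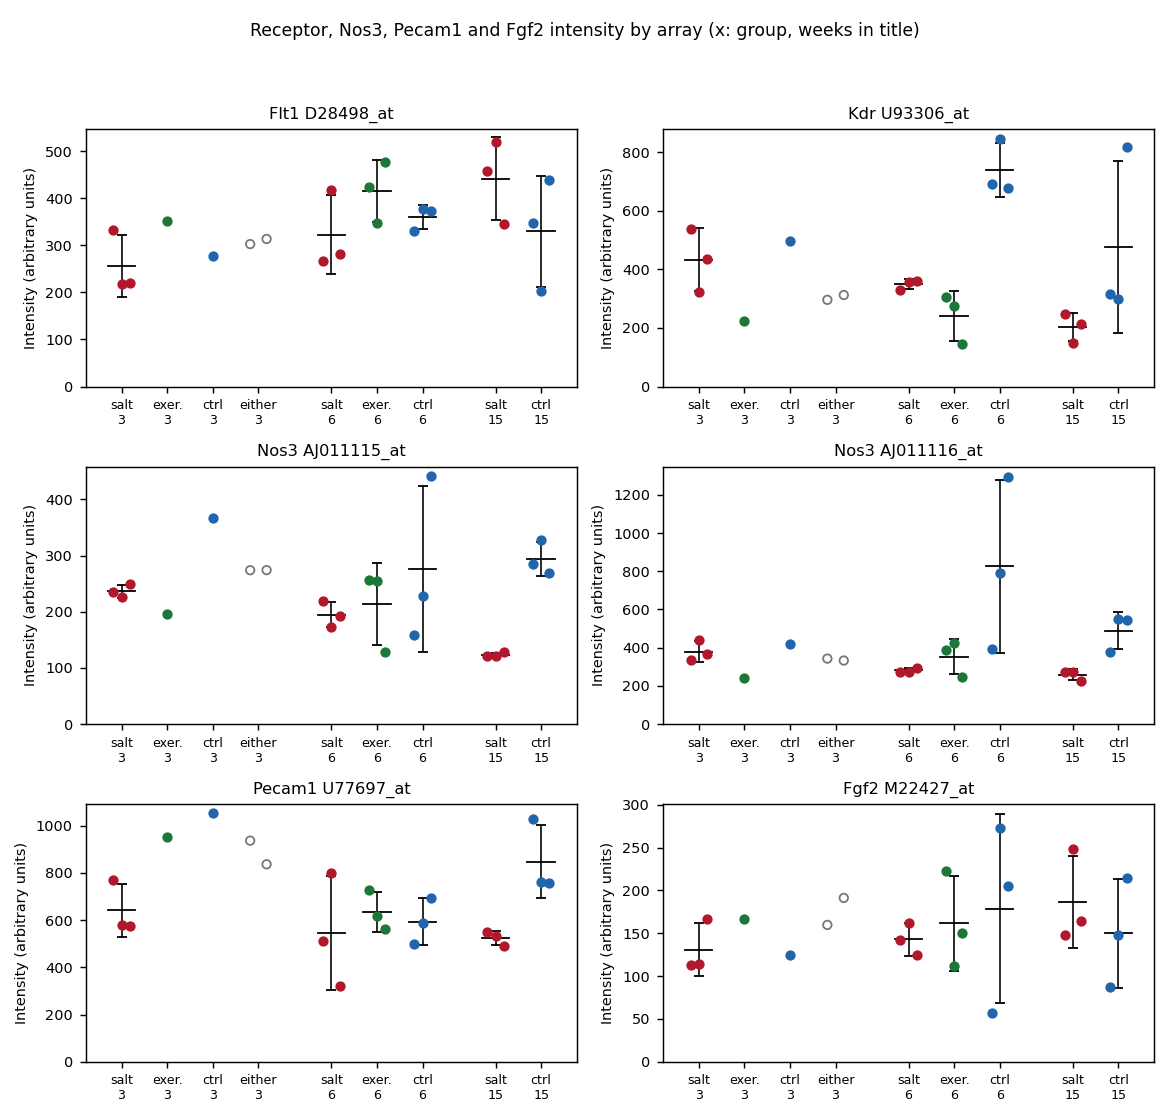
Intensity (arbitrary units, linear axis from 0) of Flt1, Kdr, 2 Nos3 probe sets, Pecam1 and the brighter Fgf2 probe set in each array, drawn as for Vegfa. Nos3 AJ011115_at is at 120.5 to 128 in high salt and 269 to 327 in control at 15 weeks, and 1 control array of that week lifts the Kdr mean.

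Markers of other cells of the ventricle also differed at 15 weeks, and their part in these results was not tested. The 5 endothelial markers summed to 1353 to 1955 in high salt arrays and 2021 to 2718 in controls, with 0 of 5 called. Outside Kdr and Pecam1, Thbd was at 735 in high salt and 734 in control, Vwf at 138 in high salt and 116.5 in control, and Icam2 at 68.4 in high salt and 121 in control. Summed fibroblast markers lay at 11662 to 22400 in high salt and 26444 to 35706 in control, with 4 of 7 called lower and none at 0. Col3a1, Col1a2, Col1a1 and Lum were called, and Dcn, Pdgfra and Fn1 were not. Macrophage and leukocyte markers summed to 3525 to 4550 in high salt and 6410 to 7182 in control, with 2 of 5 lower and none at 0. RT1-Da and Cd74 were called, and Cd14, Ptprc and Lyz2 were not. Red blood cell markers went the other way, at 31916 to 39002 in high salt and 18166 to 24499 in control, with 2 of 3 higher and none at 0. Alas2 and Slc4a1 were called, and Hbb was not, though 1 of 3 Slc4a1 probe sets had the opposite sign. The 11 cardiac myocyte markers summed to 252103 to 351909 in high salt and 280182 to 345703 in control, with 0 called. When the GAPDH ratio entered the fit as a covariate, the 15-week calls of Vegfa and Nos3 held, at adjusted p = 0.0028 for M32167_g_at, 0.00985 for rc_AA850734_at, 0.0353 for M32167_at and 0.049 for AJ011115_at.

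Across the weeks of the diet, the only calls among the 6 genes were those of Vegfa. Its 4 probe sets showed no detectable difference between 3 and 6 weeks of high salt and were all lower at 15 weeks. In the order 3, 6 and 15 weeks, rc_AA850734_at averaged 2683 ± 203, 2860 ± 792 and 1033 ± 355 (SD, n = 3 each). M32167_g_at averaged 768 ± 93.9, 799 ± 158 and 306 ± 111 in the same order. For M32167_at the means were 1078 ± 64.4, 1198 ± 295 and 550.5 ± 163, and for L20913_s_at they were 1683 ± 88.0, 1748 ± 672 and 658 ± 178. Between 3 and 6 weeks 0 of 15 probe sets were called, beside 0.0763% of all tested. At an unadjusted p under 0.05 there were 0 of the 15, beside 4.62% of all tested.

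Set against 6 weeks, the high salt hearts of 15 weeks had 4 of 15 probe sets lower and 0 higher, and all 4 were those of Vegfa. The share of all tested probe sets called lower was 1.54%. The log2 differences, 15 minus 6 weeks, were -1.45 ± 0.24 for rc_AA850734_at, -1.32 ± 0.22 for M32167_g_at, -1.31 ± 0.29 for L20913_s_at and -1.08 ± 0.21 for M32167_at. Their adjusted p-values ran from 0.00124 to 0.0112. In a fit of only these 2 groups, L20913_s_at and M32167_at missed the threshold, at adjusted p = 0.0683 and 0.0755. L20913_s_at also missed it without the 15-week array numbered 3 or the 6-week array numbered 2 or 3, at 0.0706 to 0.0757. In all, 8 of 15 had no overlap and lay lower, beside 8.45% of all tested.

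Set against 3 weeks, the same 4 Vegfa probe sets were the ones called at 15 weeks, all lower, beside 2.91% of all tested that were called lower. The differences were -1.40 ± 0.24, -1.27 ± 0.22, -1.34 ± 0.29 and -0.96 ± 0.21 in the same order, with adjusted p from 0.00136 to 0.0101. Without the 15-week array numbered 3, M32167_at was at adjusted p = 0.0611. Here 8 of 15 lay lower without overlap, beside 13.5% of all tested. In both contrasts of weeks 4 of 7 fibroblast markers and 2 of 5 macrophage and leukocyte markers were also lower at 15 weeks. They were the same ones as against control. Red blood cell markers were higher, 3 of 3 against 6 weeks and 2 of 3 against 3 weeks. The part of all these markers in the Vegfa values was not tested. These contrasts share the 15-week salt arrays with the comparison against control, so they are not separate evidence. No 15-week difference of the receptors, Nos3, Pecam1 or Fgf2 was called in either contrast. Kdr differed by -0.95 ± 0.31 against 3 weeks (adjusted p = 0.0854) and by -0.70 ± 0.31 against 6 weeks (adjusted p = 0.32). Flt1 was at 256 ± 65.4 at 3 weeks, 322 ± 83.9 at 6 weeks and 442 ± 88.4 at 15 weeks, and its difference between 15 and 3 weeks was 0.71 ± 0.25 (adjusted p = 0.125), without overlap. Nos3 AJ011115_at stood at 237 ± 11.3, 195 ± 23.0 and 123 ± 3.89 at 3, 6 and 15 weeks, in that order, and the difference between 15 and 3 weeks did not pass (-0.76 ± 0.27; adjusted p = 0.127), though it did with the 6-week controls out of the fit (adjusted p = 0.0494) and under the GAPDH covariate (adjusted p = 0.0237).

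The 15-week controls were set against the 4 non-salt arrays of 3 weeks, and 0 of 15 probe sets were called by limma, beside 0.0153% of all tested. At an unadjusted p under 0.05 there were 0 of 15, beside 7.81% of all tested. The 4 Vegfa differences, 15 minus 3 weeks, lay between -0.12 and 0.08. For rc_AA850734_at the means were 2312 ± 78.6 at 15 weeks (n = 3) and 2353 ± 393 at 3 weeks (n = 4). The largest difference among the 15 was that of Nos3 AJ011116_at, at 0.51 ± 0.27 (adjusted p = 0.678).

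Set against the 6-week controls, a comparison chosen after seeing the data, the 15-week controls had 0 of 15 probe sets called by limma. Of all tested, 0.412% were called lower and 0.458% higher. At an unadjusted p under 0.05 there were 4 of 15, beside 17% of all tested. The groups did not overlap for 2 probe sets that were lower, beside 11.7% of all tested, and for 2 that were higher, beside 6.07%. Both lower ones belong to Vegfa, whose other 2 were higher in sign. rc_AA850734_at averaged 2312 ± 78.6 in 15-week controls and 3839 ± 967 in 6-week controls (SD, n = 3 each), and all 15-week arrays lay below all 6-week arrays (-0.69 ± 0.24; adjusted p = 0.162). M32167_g_at averaged 758 ± 92.2 in 15-week controls and 1165 ± 155 in 6-week controls, also without overlap (-0.59 ± 0.22; adjusted p = 0.178). In high salt the same 2 probe sets differed by -1.45 and -1.32 between those weeks, and neither difference between the salt and control courses passed (-0.76 ± 0.34 and -0.72 ± 0.31; adjusted p = 0.289 and 0.263). M32167_at was higher in the 15-week controls, without overlap, at 0.75 ± 0.21 (adjusted p = 0.0892). L20913_s_at was higher in sign, at 0.48 ± 0.29 (adjusted p = 0.42). Without the 6-week control numbered 1, 3 probe sets passed: rc_AA850734_at (-0.89; adjusted p = 0.0393), M32167_at (0.86; adjusted p = 0.0303) and Nos3 AJ011116_at (-1.01; adjusted p = 0.0185). The 6-week controls are those with GAPDH ratios of 1.58 to 3.99, and under the GAPDH covariate rc_AA850734_at was at -0.32 ± 0.32 and M32167_g_at at -0.36 ± 0.30.

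**Figure D3:**
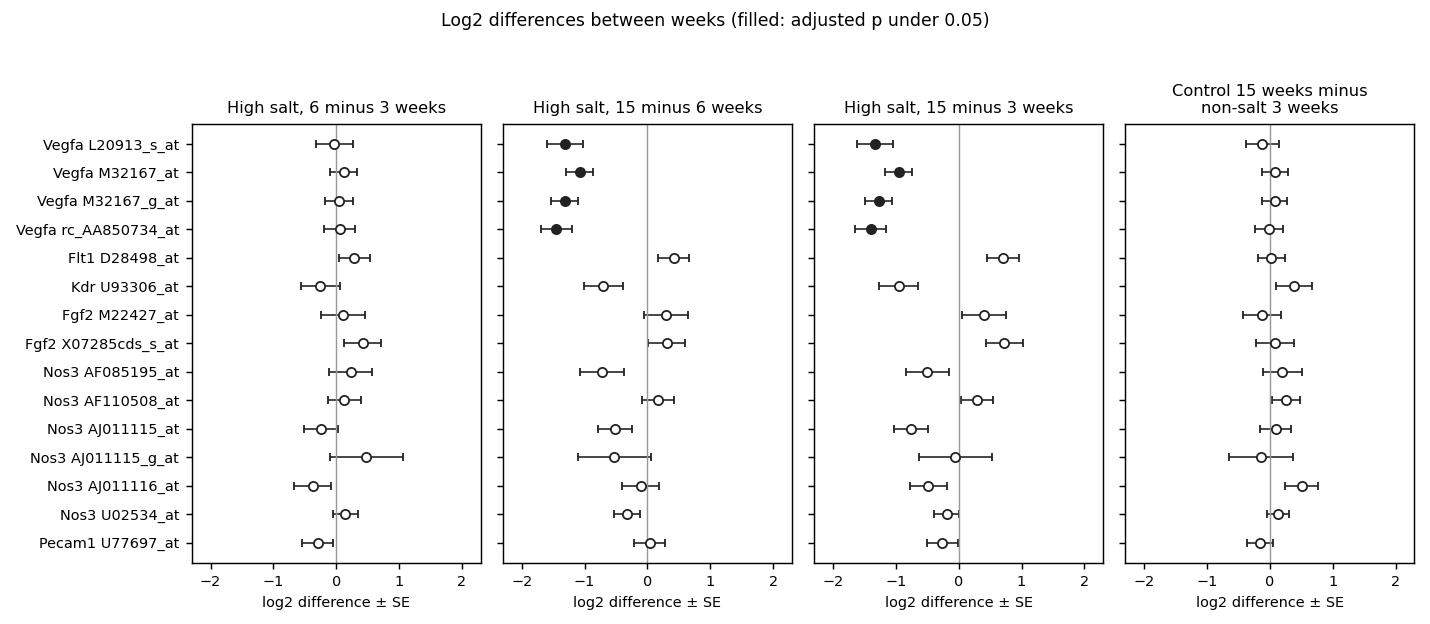
Log2 differences ± SE (limma) of the 15 probe sets between weeks, with filled points at an adjusted p under 0.05. All 4 Vegfa probe sets are filled and left of 0 in high salt at 15 weeks against 6 and 3 weeks, and no point is filled for 6 minus 3 weeks or for controls at 15 minus non-salt hearts at 3 weeks.

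High salt was set against control at 6 weeks as an earlier stage of the diet, with the RNA integrity of these controls in view. Of the 15 probe sets, 2 were called higher and 2 lower, beside 6.64% of all tested called higher and 7.73% lower. Both higher ones were Vegfa. L20913_s_at gave 973, 2172 and 2099.5 in high salt and 958, 536 and 573 in control. The groups met closely, at 973 against 958, and the difference was 1.25 ± 0.29 (adjusted p = 0.00649). M32167_at gave 884, 1240.5 and 1469 in high salt and 630.3, 452 and 530.2 in control, clear of each other, with 1.08 ± 0.21 (adjusted p = 0.00261).

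The other 2 Vegfa probe sets had the opposite sign at 6 weeks. M32167_g_at gave 722, 694 and 980.3 in high salt and 999, 1193 and 1304 in control, a difference of -0.53 ± 0.22 (adjusted p = 0.11). For rc_AA850734_at the values were 1983, 3074 and 3523 in high salt and 2825, 3940.4 and 4750.3 in control, which overlapped (-0.43 ± 0.24; adjusted p = 0.256). The 4 probe sets of this gene therefore gave no single direction against the 6-week controls, whereas they had 1 sign at 15 weeks. Over the 22 distinct arrays, log2 values of L20913_s_at and M32167_at correlated at r = 0.881 and those of M32167_g_at and rc_AA850734_at at r = 0.925, but r across these pairs was 0.312 to 0.375. Without the 3 arrays of 6-week controls the 4 values across the pairs were 0.701 to 0.873 (n = 19). These arrays share group differences, and the r values are descriptions only.

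The 2 probe sets called lower at 6 weeks were Kdr and a probe set of Nos3. Kdr gave 329, 356 and 362 in high salt and 689.9, 843 and 679 in control, far apart, with -0.99 ± 0.31 (adjusted p = 0.0345). The 6-week controls were the highest Kdr group of the study. The call held in 7 of 16 other settings and was lost without any 1 of 5 arrays, where adjusted p lay between 0.0719 and 0.122. Nos3 AJ011116_at gave 275, 274 and 294 in high salt and 393, 792 and 1294 in control, with -1.29 ± 0.29 (adjusted p = 0.0064). Among these controls its order was that of the GAPDH ratios, 1.58, 2.48 and 3.99. Flt1, Pecam1, Fgf2 and the other 5 Nos3 probe sets did not pass.

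Exercise was set against the same controls at 6 weeks. Here 1 of 15 probe sets was called higher and 2 lower, beside 4.47% of all tested called higher and 3.36% lower. Vegfa M32167_at gave 1059, 1203 and 987 in exercised hearts and 630.3, 452 and 530.2 in control, with 0.97 ± 0.21 (adjusted p = 0.0087). L20913_s_at gave 1189.5, 1242 and 1328 in exercise and 958, 536 and 573 in control, apart from each other, with 0.87 ± 0.29 (adjusted p = 0.0648). The remaining Vegfa probe sets were again negative, M32167_g_at at -0.37 ± 0.22 and rc_AA850734_at at -0.64 ± 0.24, and did not pass. Kdr read 307, 273 and 145 in exercise and 689.9, 843 and 679 in control, and it fell by 1.51 ± 0.31 on the log2 scale (adjusted p = 0.0049). Nos3 AJ011116_at read 388, 422 and 249 in exercise and 393, 792 and 1294 in control, which overlapped, with -1.02 ± 0.29 (adjusted p = 0.0369). Pecam1, at 635 ± 84.7 in exercise and 594 ± 99.2 in control, and Flt1, at 416 ± 65.4 in exercise and 359.9 ± 25.5 in control, did not pass, at adjusted p = 0.854 and 0.71 (SD, n = 3 each). The number of calls rested on single controls: without the 6-week control numbered 1 there were 5, and without the one numbered 2 there was 1.

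**Figure D4:**
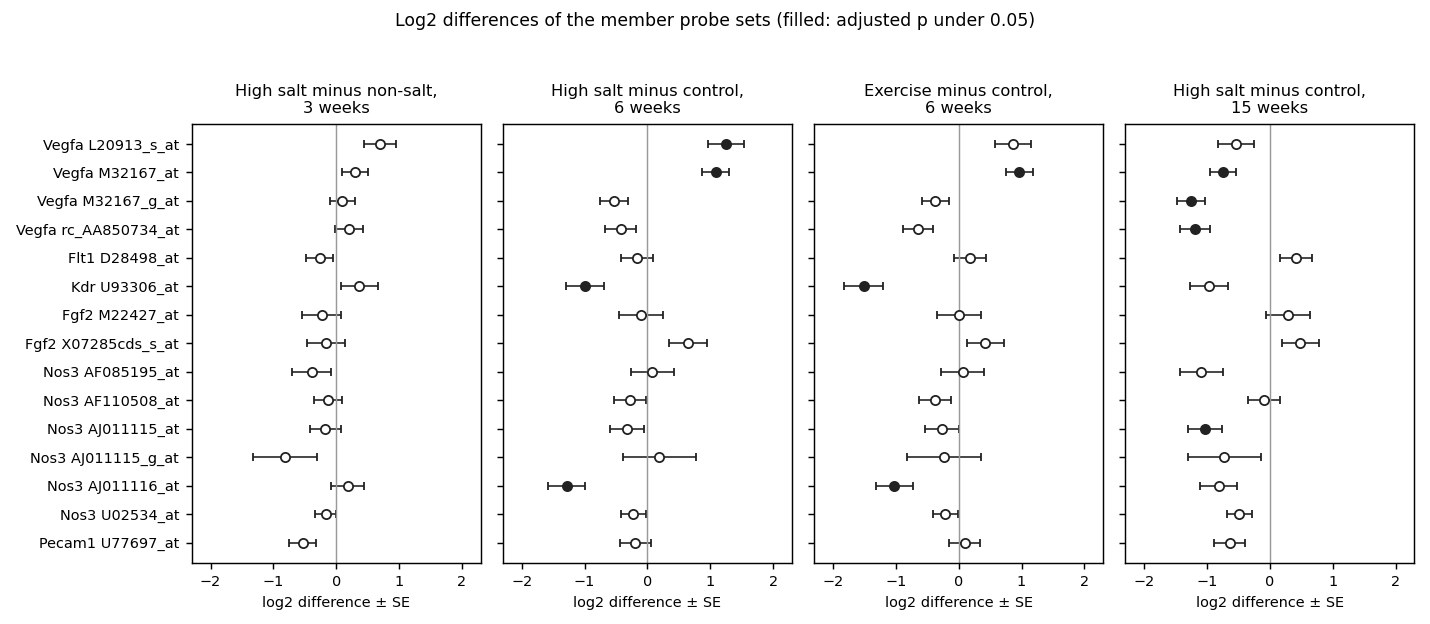
Log2 differences ± SE (limma) of the 15 probe sets for high salt at 3, 6 and 15 weeks and exercise at 6 weeks, each minus its reference, with filled points at an adjusted p under 0.05. The Vegfa probe sets split in sign in both 6-week panels and lie left of 0 together at 15 weeks.

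None of the 6-week calls against control held in either fit that addressed the RNA integrity of these controls. When this ratio was a covariate, 0 of 15 were called for high salt and 0 for exercise. Over all tested probe sets the calls were then 15 for high salt and 0 for exercise, from 942 and 513 in the main fit. The loss of calls is thus not particular to these genes. The ratio was high mainly in these controls, so the covariate overlaps with the group, and the SEs were wider. L20913_s_at was then at 0.42 ± 0.43 for high salt and M32167_at at 0.85 ± 0.36, while Kdr was at -0.83 ± 0.52 and Nos3 AJ011116_at at 0.09 ± 0.32. For exercise the same 4 were at -0.02 ± 0.45, 0.72 ± 0.37, -1.34 ± 0.55 and 0.44 ± 0.33. The mean of the 3-week and 15-week controls was also used as reference, in place of the 6-week controls. In that fit the 3-week controls were 1 array, which weighed as much as all 15-week controls together. Against this mean Vegfa L20913_s_at was at 0.81 ± 0.29 and M32167_at at 0.46 ± 0.21 for high salt. Kdr was at -0.37 ± 0.31 for high salt and -0.88 ± 0.31 for exercise.

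**Figure D5:**
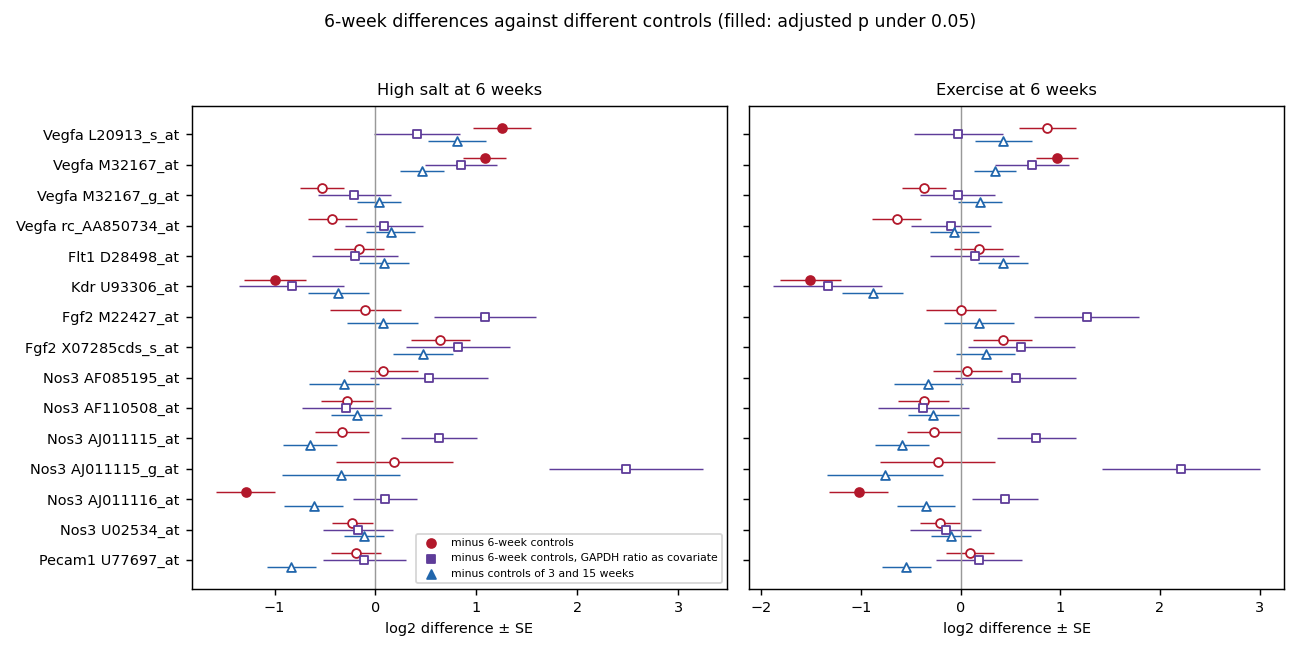
Log2 differences ± SE at 6 weeks of the 15 probe sets against the 6-week controls (circles), against them with the GAPDH ratio as a covariate (squares) and against the controls of 3 and 15 weeks (triangles), with filled points at an adjusted p under 0.05. All filled points are circles: 4 for high salt and 3 for exercise.

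High salt and exercise, which share those controls, were also set against each other at 6 weeks, where RNA integrity was alike. Of the 15 probe sets 0 were called by limma, beside 0.0153% of all tested. At an unadjusted p under 0.05 there were 0 of 15, beside 7.05% of all tested. The largest difference was that of Kdr, at 349 ± 17.6 in high salt and 242 ± 85.6 in exercise (SD, n = 3 each), or 0.52 ± 0.31 on the log2 scale (adjusted p = 0.787). The high salt arrays all lay above the exercise arrays, as at 5.46% of all tested probe sets. The Vegfa differences ran from -0.16 to 0.38. With 3 arrays a group, differences of this size were not detectable.

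The salt difference at 15 weeks was tested against that at 6 weeks. It was lower at 2 of 15 probe sets, beside 0.809% of all tested, and both were Vegfa. M32167_at changed by -1.83 ± 0.30 (adjusted p = 0.00325) and L20913_s_at by -1.79 ± 0.41 (adjusted p = 0.0238). Under the GAPDH covariate M32167_at was at -1.65 (adjusted p = 0.048) and L20913_s_at at -1.15 (adjusted p = 0.323). L20913_s_at also lost its call when certain single arrays were left out, at adjusted p = 0.0571 to 0.0868. In a fit of only the compared groups it was at 0.0981. The other 2 Vegfa probe sets were at -0.72 ± 0.31 and -0.76 ± 0.34 and did not pass, and Kdr was at 0.02 ± 0.43.

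At 3 weeks, high salt was set against the 4 distinct non-salt arrays. Of 15 probe sets 0 were called by limma, beside 0.153% of all tested, while 2 had an unadjusted p under 0.05, beside 8.05% of all tested. One was Vegfa L20913_s_at, at 1634, 1784 and 1629.8 in high salt. It read 884 in exercise, 895 in control, and 1276 and 1103 in the arrays deposited under both labels. All salt arrays thus lay above all others, as at 6.13% of all tested probe sets. The difference was 0.69 ± 0.26 (adjusted p = 0.444), and in a fit of only these groups it passed (adjusted p = 0.0378). That fit gave 100 calls over all probe sets, beside 10 in the main fit. The other was Pecam1, at 772, 578 and 577 in high salt and at 951, 1054, 937 and 837 in the non-salt arrays. The difference was -0.54 ± 0.21 (adjusted p = 0.489), without overlap, as at 8.71% of all tested probe sets that were lower. Exercise and control could not be compared at this week, with 1 array each. Kdr was at 225 in that exercise array and 495 in that control array, Nos3 AJ011115_at at 196 in exercise and 367 in control, and Vegfa M32167_at at 769 in exercise and 765 in control.

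For each gene's brightest probe set, the 3 probe sets with the most similar log2 profile over the 22 distinct arrays were found. For Vegfa rc_AA850734_at they were the other probe set M32167_g_at (r = 0.925), Samd1 (r = 0.885) and Vtn, encoding the matrix protein vitronectin (r = 0.864). Nos3 AJ011116_at was closest to Dgkz (r = 0.901), Plcg1, a phospholipase that acts downstream of receptor tyrosine kinases (r = 0.897), and Dgka (r = 0.894). Kdr was closest to Rpl31 and Dkc1 (r = 0.791 each) and Rps9 (r = 0.787). For Flt1 they were Padi2, Vps45 and Prpf3 (r = 0.746 to 0.79), for Pecam1 Ankrd24, Polr2a and Prkce (r = 0.734 to 0.782), and for Fgf2 Cxcl6, RatNP-3b and Ghrh (r = 0.737 to 0.768). All arrays enter each r, the 6-week controls among them, and no other member was among the 3 closest to Flt1, Kdr, Fgf2, Nos3 or Pecam1.

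The partners of these genes were counted from lists. Of 33 tested genes of VEGF and angiogenic growth, 5 were lower and 1 higher in high salt at 15 weeks, with a median of -0.35. Over all 3828 tested genes, 3.84% were lower and 3% higher, with a median of -0.05. Nrp1, encoding neuropilin 1, a coreceptor that presents Vegfa to Kdr, was at 675 in high salt and 1664 in control, a log2 difference of -1.27 ± 0.20 (adjusted p = 0.000541). Nrp1 at 15 weeks was also lower than at 6 weeks of high salt (-1.08 ± 0.20; adjusted p = 0.00294) and at 3 weeks (-1.40 ± 0.20; adjusted p = 0.000291). Tgfb1, a growth factor of vessel wall and matrix, changed by -1.18 ± 0.24, and Cxcr4, a chemokine receptor of vascular cells, by -0.77 ± 0.17. Fgf1, the acidic relative of Fgf2 that binds the same receptors, was at 978 in high salt and 323 in control (1.51 ± 0.32, adjusted p = 0.00622). In high salt it was at 687 at 3 weeks and 778 at 6 weeks. Neither differed from 15 weeks at the threshold (adjusted p = 0.513 and 0.608). At 3 weeks no gene of this list was called in high salt against non-salt hearts. At 6 weeks Fgf1 was at 689 in exercise and 320 in control. Hif1a, the hypoxia factor that drives Vegfa transcription, was at 147 in high salt and 170 in control at 15 weeks (adjusted p = 0.785), and it was lower at 15 than at 3 weeks of high salt (-0.99 ± 0.22; adjusted p = 0.0089). The other ligands Vegfb, Vegfd and Pgf differed by -0.03 to 0.32 at 15 weeks and did not pass.

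Of 18 tested genes of nitric oxide signalling, 2 were lower and 1 higher in high salt at 15 weeks, with a median of 0.01. Gucy1a1, a subunit of the soluble guanylate cyclase that senses nitric oxide, was at 166 in high salt and 352 in control (-0.93 ± 0.19; adjusted p = 0.00426). Cav1, encoding caveolin 1, which binds and restrains the Nos3 enzyme, differed by -0.78 ± 0.23 at 15 weeks (adjusted p = 0.0477), whereas at 6 weeks it was called higher in high salt, at 0.72 ± 0.23 (adjusted p = 0.0457), but stood at -0.29 and was not called against the controls of 3 and 15 weeks. Gch1, which makes the tetrahydrobiopterin that the enzyme needs, rose to 476 in high salt, against 105 in control (1.80 ± 0.27; adjusted p = 0.000389), but 1 of its 2 probe sets had the opposite sign. Of 27 other endothelial genes 3 were lower and 0 higher, with a median of -0.23: Ly6c (-0.93 ± 0.20), Sparcl1 (-0.82 ± 0.18) and Cav1, which is on both lists.

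At 15 against 6 weeks of high salt, where 1.46% of all tested genes were lower and 1.67% higher, 1 of 33 angiogenic genes was lower (Nrp1), 1 of 18 nitric oxide genes was higher (Gch1, 1.64 ± 0.27), and of the 27 endothelial genes Klf4 and Ly6c were lower and Ace was higher (1.02 ± 0.26). Against 3 weeks of high salt, 2.85% of all tested genes were lower and 2.19% higher. Of 33 angiogenic genes 4 were lower and 0 higher: Nrp1, Hif1a, Tgfb1 (-0.87 ± 0.24) and Fgfr1, a receptor of Fgf2 (-1.02 ± 0.21). Of 18 nitric oxide genes 3 were lower, namely Gucy1a1 (-0.83 ± 0.19), Cav1 (-0.83 ± 0.23) and Slc7a1, an arginine transporter (-0.96 ± 0.26), and 1 was higher, Gch1 (1.64 ± 0.27). For both Slc7a1 and Gch1, 1 of 2 probe sets had the opposite sign. Of 27 other endothelial genes 1 was lower (Cav1) and 1 higher, Ace, which makes angiotensin II (0.98 ± 0.26). The salt difference itself changed between 6 and 15 weeks for Gch1 (2.25 ± 0.39; adjusted p = 0.00413), Cav1 (-1.50 ± 0.33; adjusted p = 0.0195) and Ace (1.71 ± 0.36; adjusted p = 0.0173), of 18 nitric oxide and 27 endothelial genes, and for 0 of 33 angiogenic genes, beside 0.94% of all tested genes changed upward and 0.601% downward. Under the GAPDH covariate none of these 3 was called there, at adjusted p = 0.0842 for Gch1, 0.109 for Cav1 and 0.274 for Ace.

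At 6 weeks the lists were read against the low-integrity controls. For high salt 6 of 33 angiogenic genes were lower and 3 higher, and for exercise 4 were lower and 2 higher. Over all tested genes 8.59% were lower and 4.68% higher for high salt, and 3.63% were lower and 3% higher for exercise. Nrp1 was at 1475 in high salt and 1376 in exercise, against 3316 in control, with differences of -1.17 ± 0.20 for high salt and -1.26 ± 0.20 for exercise. Against the controls of 3 and 15 weeks it was at -0.08 for high salt and -0.17 for exercise and was not called. Vegfb was at 1369.5 in high salt and 1351 in exercise, against 541 in control, with differences of 1.42 ± 0.33 for high salt (adjusted p = 0.00725) and 1.41 ± 0.33 for exercise (adjusted p = 0.0123). For exercise its difference was -0.16 ± 0.40 under the GAPDH covariate and 0.04 ± 0.33 against the controls of 3 and 15 weeks. In high salt against the 6-week controls Notch1 (-1.14 ± 0.20), Efna1 (-0.88 ± 0.18) and Acvrl1 (-1.33 ± 0.29) were also lower, though 1 of 2 Efna1 probe sets had the opposite sign. In exercise Notch1 (-0.76 ± 0.20) and Acvrl1 (-1.44 ± 0.29) were lower. Of 18 nitric oxide genes 2 were lower and 1 higher for high salt: Gucy1a1 (-0.82 ± 0.19), Gucy1b1 (-0.91 ± 0.25) and Cav1 (0.72 ± 0.23). For exercise 1 was lower and 1 higher: Gucy1a1 (-0.82 ± 0.19) and Cav1 (0.91 ± 0.23). Of the 27 endothelial genes, 6 were lower and 2 higher for high salt, among them Mgll (-1.23 ± 0.22), Ace (-1.07 ± 0.26) and Tfpi (0.79 ± 0.23), and 4 were lower and 1 higher for exercise, among them Mgll (-1.31 ± 0.22), Egfl7 (-0.88 ± 0.24) and Cav1. Fabp4, a fatty acid carrier of capillaries, was at 1791 in high salt and 2189 in exercise, against 5560 in control, with differences of -1.53 ± 0.24 for high salt and -1.24 ± 0.24 for exercise, and it differed from the controls of 3 and 15 weeks by -0.08 for high salt and 0.21 for exercise. With the covariate or against those other controls, none of the list genes named here was called for either treatment, Vegfb being recomputed for exercise only.

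Markers of other cells moved with the 6-week comparisons, and their part in them was not tested. Of 6 smooth muscle markers, none of them at 0, Myh11, Tagln and Acta2 were lower and Des higher for both treatments, and they summed to 12682 to 15114 in high salt, 13759 to 14354 in exercise and 10464 to 19829 in control. Of 11 cardiac myocyte markers 2 were higher for each treatment, and the sums were 283379 to 365735 in high salt, 217502 to 286325 in exercise and 224725 to 308507 in control. Of 5 macrophage and leukocyte markers 1 was higher for each treatment and 1 was lower for high salt, with sums of 7575 to 11506 in high salt, 7339 to 11575 in exercise and 6609 to 7898 in control, and of 3 skeletal muscle markers 1 was lower for each. The 5 endothelial markers summed to 1332 to 2308 in high salt, 1430 to 1848 in exercise and 1889 to 2634 in control, with Kdr the only one called. At 3 weeks 0 genes of any of the 3 lists were called, and 0 when high salt was set against exercise at 6 weeks.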

How the data were processed

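Left ventricular RNA was measured on an Affymetrix rat array. The deposited values were 1 linear intensity per probe set and column, for 8799 probe sets in 24 columns. For the authors' summary method, background step and software, the answer is not given in the sources used here. Each column's mean, trimmed by 2% at each end, lay between 500.8 and 501.0, so the deposited intensities were already scaled and were used as they stood. The columns numbered 2 and 3 of exercise and control at 3 weeks were identical in all values, while other pairs shared at most 31.

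Control probe sets (59) were left out, and intensities were taken as log2(value + 40), which understates changes of dim probe sets. Probe sets with a mean under the 25th percentile were not tested, leaving 6555. Group means were fitted with limma 3.58.1 (lmFit, eBayes with trend) in R 4.3.3, on 20 arrays in 8 groups (12 residual degrees of freedom) without the doubly deposited arrays; a group of 1 array is then assumed to vary like the others. The comparisons with non-salt hearts of 3 weeks used 22 arrays in 7 groups (15 residual degrees of freedom). Adjusted p-values are limma's, by the Benjamini-Hochberg method over 6555 probe sets, and a call is an adjusted p under 0.05. There were 11 comparisons: 5 between treatments within a week, 5 between weeks and 1 of the salt difference between 6 and 15 weeks. The comparison of 15-week with 6-week controls was added after seeing the data, for the members only. The fit was tested on simulated data.

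The members and gene lists were chosen with earlier results of these data known. All member probe sets were named. From each list up to 4 called genes with the smallest p were named, each by its brightest tested probe set; the other members named (Hif1a and the VEGF family ligands at 15 weeks, Thbd, Vwf, Icam2, the markers, and Vegfb in high salt at 6 weeks) were chosen for their role or after their values were seen. Similar profiles were ranked by Pearson r among probe sets with 1 gene symbol. Symbols came from the platform annotation, which gave 1 symbol for 7018 probe sets. Alternatives were other pseudocounts (10 and 100), no filter, quantile normalization, a block for the replicate number, only the compared groups, the GAPDH 3' to 5' ratio as a covariate, each array left out, all 24 columns, 22 arrays, and other controls. Precision is limited by the few arrays in each group. Promoter windows are from RefSeq (GRCr8), while probe positions on the genome were not used here.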

Additional observations from a re-analysis of the deposited data

Results flagged for a closer look

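Vegfa M32167_at in the 4 non-salt arrays of 3 weeks had 1 array far above the rest: 1310.5 in an array deposited under both labels, beside 769, 765 and 739.8. On the log2 scale the gap to the nearest array was 0.934 of the whole range, above Dixon's 95% critical value for 4 arrays. Chance alone marks about 1 in 20 groups, and 15 were examined here, 1 for each probe set.

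The salt difference of Vegfa was not the same at 15 and 6 weeks at a pair of its probe sets, by the test of the difference itself. M32167_at changed by -1.83 on the log2 scale and L20913_s_at by -1.79. The 6-week controls, with GAPDH ratios of 1.58 to 3.99, enter both values. With that ratio as a covariate M32167_at was at -1.65 and called, and L20913_s_at at -1.15 ± 0.44 and not called. The part of RNA integrity in the difference was not tested. L20913_s_at also lost its call when certain single arrays were left out and in a fit of only the compared groups.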

How the results depend on the processing

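Of 2730 member values recomputed over all alternatives, 2531 kept their sign and side of the threshold, 123 uncalled ones changed sign, 56 lost a call, 18 gained one and 2 called ones reversed. The calls of Vegfa M32167_g_at and rc_AA850734_at in high salt at 15 weeks, against control, 6 weeks and 3 weeks, held in all 16 other settings of each. With each array left out in turn, the member calls ran from 2 to 4 for high salt against control at 15 weeks (2 without the high salt array numbered 1), 3 to 4 for high salt and 1 to 5 for exercise against control at 6 weeks, 3 to 4 for high salt at 15 against 6 and against 3 weeks, 1 to 2 for the difference between weeks and 0 to 3 for controls of 15 against 6 weeks. With only the compared groups in the fit they were 2 for high salt against control at 6 weeks, 1 for high salt at 3 weeks, 2 for high salt at 15 against 6 weeks and 1 for the difference between weeks, with fewer arrays behind the spread. With the GAPDH ratio as a covariate they were 0 for high salt and 0 for exercise against control at 6 weeks and 1 for the difference between weeks, beside 15, 0 and 34 calls over all probe sets. Against the controls of 3 and 15 weeks they were 0 for both treatments. Reversed values were Nos3 AJ011116_at with the covariate (0.094 for high salt, 0.44 for exercise) and Vegfb for exercise with it (-0.16), and, against the controls of 3 and 15 weeks, Cav1 (-0.29 for high salt, -0.094 for exercise) and Fabp4 for exercise (0.21). No pairing by replicate number was evident: deviations of same-numbered arrays correlated between -0.228 and 0.241. With 3 arrays in a group, these values cannot settle whether the arrays were paired. With the replicate block the member calls were 3 for high salt against control at 15 weeks, where Vegfa M32167_at had an adjusted p of 0.0566, and 4 and 3 at 6 weeks, with no other member's call changed.

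Over all probe sets, high salt against control gave 472 calls at 15 weeks (220 to 547 with an array left out, 276 to 611 in other settings) and 942 at 6 weeks (454 to 1232, and 10 to 1236), and exercise gave 513 (210 to 860, and 0 to 776). High salt at 15 against 6 weeks gave 209 (141 to 194, and 113 to 263), against 3 weeks 330 (192 to 270, and 285 to 422), and the difference between weeks 105 (55 to 304, and 34 to 189). High salt at 3 weeks gave 10 (0 to 8, and 1 to 100), 6 against 3 weeks of high salt 5 (2 to 10, and 3 to 7), high salt against exercise 1 (0 to 7, and 0 to 6), controls of 15 weeks against non-salt 1 (1 to 50, and 1 to 9), and controls of 15 against 6 weeks 57 (0 to 463, and 1 to 193). Quantile normalization moved the median of all probe sets for high salt at 6 weeks to -0.045, from -0.15 as deposited, and the share of calls that were higher to 56.1%, from 46.2%; the called Vegfa, Kdr and Nos3 values kept their signs under it, Kdr with an adjusted p of 0.0851. Leaving the 6-week controls out of the fit was chosen after seeing the data.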
